A study of Mus musculus with 321 samples.

Results

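The 4 mouse genes of the TCF/LEF family are Tcf7, which encodes Tcf-1, Lef1, Tcf7l1 and Tcf7l2. Each was taken with its gene body and 50 kb on both sides (GRCm38, 1-based), which gave 4 of the 21887 protein-coding genes and 88 of the 93162 open regions found when the peaks of all 12 ATAC-seq libraries were merged. Tcf7 lies on chr11:52246527-52283383, Lef1 on chr3:131110297-131224357, Tcf7l1 on chr6:72626371-72789045 and Tcf7l2 on chr19:55741797-55933659. Tcf7 and Tcf7l1 are read from the minus strand and the others from the plus strand. The Tcf7 window held 24 open regions, that of Lef1 18, and those of Tcf7l1 and Tcf7l2 23 each. Of these, 14, 11, 15 and 16 lay inside the respective gene.

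The study asked how Tcf-1 relates to chromatin in mouse T cells and in a cell type that does not normally use it. ATAC-seq, in which a transposase cuts accessible DNA, was made from FACS-purified thymocytes positive for CD4 and CD8 (double-positive, DP). These came from animals labelled C56BL/6 (WT, n = 2) or TCF-1-/- deltaVII (KO, n = 2). It was also made from NIH3T3, an established NIH/Swiss mouse fibroblast line at passages 8 to 12, carrying an empty retrovirus (Empty RV, n = 4) or a retrovirus that expresses Tcf-1 (Tcf-1 RV, n = 4). ChIP-seq islands of H3K27me3 and H3K9me3, both repressive histone marks, came from NIH3T3 without Tcf-1 (n = 2 each), and 1 pooled list gave Tcf-1 ChIP-seq summits in Tcf-1 RV cells. By their file names, the summit list is of day 2, and each NIH3T3 ATAC-seq group holds 2 libraries tagged day 2 and 2 tagged day 4. Animal ages are not given in the sources used here, and nothing says that replicates were separate animals or cultures, so any p-value measures the spread between these libraries. The KO allele could not be checked, because peak positions do not show a deletion of part of a gene.

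TCF/LEF proteins bind DNA through a high-mobility-group box that recognises the core CTTTGA. In Wnt signalling they recruit the coactivator beta-catenin, and without it they can bind corepressors of the Groucho/TLE family. Tcf-1 and Lef1 are the members known for roles in thymocyte development, while Tcf7l1 and Tcf7l2 are known from stem cells, skin and gut.

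The WT libraries listed 23249 and 30985 peaks and the KO libraries 11171 and 12209, so any KO loss has to be read against shorter lists. The NIH3T3 lists held 22778 to 58026 peaks with the empty virus and 36583 to 62639 with the Tcf-1 virus. Among 8 DP thymocyte markers, 6 to 7 had a peak within 1 kb of a gene end in a WT library, 1 to 4 in a KO library and 0 in any NIH3T3 library. No KO library had such a peak at Cd3e, nor at Cd4 or Cd8a, which define the sorted cells, and both WT libraries had one at each. Ptcra had one in both KO and both WT libraries. Rag1 and Rag2 each had one in 1 KO and both WT libraries, and Cd8b1 in 1 KO and 1 WT library. Dntt had none in any DP library. Of 8 fibroblast markers, 1 to 6 were open in an Empty RV library, 5 to 6 in a Tcf-1 RV library, 1 to 2 in WT and 0 in KO. In the KO libraries, 0 of 5 B cell, 0 of 5 myeloid, 1 of 4 NK and innate lymphoid and 1 of 3 thymic epithelial markers were open. In the same order, 1, 0 to 1, 1 and 0 to 1 were open in a WT library, and 1, 1 to 4, 1 and 0 in an NIH3T3 library. The part of other cells in the results below was not tested. In bulk samples, fewer open cells and less opening per cell cannot be told apart.

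The promoters of the 4 genes differed in where they were open, and 6 of the 9 RefSeq promoters (250 bases before to 50 after a start, build GRCm38.p6) are therefore printed. In the first 5, written 5′ to 3′ on the gene's strand, capitals mark bases under a peak in at least 6 of the 12 libraries.
Tcf7, chr11:52282965-52283264, minus strand: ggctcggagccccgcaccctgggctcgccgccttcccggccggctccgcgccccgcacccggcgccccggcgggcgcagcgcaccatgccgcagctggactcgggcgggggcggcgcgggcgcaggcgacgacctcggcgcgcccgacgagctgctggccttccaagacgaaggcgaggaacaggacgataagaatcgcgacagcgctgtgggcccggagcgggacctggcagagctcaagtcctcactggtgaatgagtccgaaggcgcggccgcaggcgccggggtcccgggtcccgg
Lef1, chr3:131110047-131110346, plus strand: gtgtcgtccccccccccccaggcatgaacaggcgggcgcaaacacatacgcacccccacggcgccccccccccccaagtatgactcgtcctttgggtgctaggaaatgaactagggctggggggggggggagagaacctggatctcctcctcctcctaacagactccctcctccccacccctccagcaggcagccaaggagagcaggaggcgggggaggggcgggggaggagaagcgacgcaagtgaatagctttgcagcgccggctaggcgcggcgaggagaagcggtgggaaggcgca
Lef1, chr3:131112541-131112840, plus strand: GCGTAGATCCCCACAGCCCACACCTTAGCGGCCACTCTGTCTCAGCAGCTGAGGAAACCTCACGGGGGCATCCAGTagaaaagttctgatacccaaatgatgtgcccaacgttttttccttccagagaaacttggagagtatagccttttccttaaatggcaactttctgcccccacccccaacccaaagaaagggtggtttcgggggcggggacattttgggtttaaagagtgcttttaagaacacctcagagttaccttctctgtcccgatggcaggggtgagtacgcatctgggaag
Tcf7l1, chr6:72788996-72789295, minus strand: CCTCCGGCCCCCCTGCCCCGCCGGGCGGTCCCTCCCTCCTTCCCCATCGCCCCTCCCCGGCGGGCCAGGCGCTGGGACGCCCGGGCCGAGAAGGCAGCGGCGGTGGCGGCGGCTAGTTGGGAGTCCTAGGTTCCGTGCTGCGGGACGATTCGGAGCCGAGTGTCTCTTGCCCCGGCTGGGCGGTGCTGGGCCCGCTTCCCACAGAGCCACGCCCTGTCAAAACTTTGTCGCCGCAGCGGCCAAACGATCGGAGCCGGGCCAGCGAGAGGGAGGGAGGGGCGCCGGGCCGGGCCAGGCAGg
Tcf7l2, chr19:55741560-55741859, plus strand: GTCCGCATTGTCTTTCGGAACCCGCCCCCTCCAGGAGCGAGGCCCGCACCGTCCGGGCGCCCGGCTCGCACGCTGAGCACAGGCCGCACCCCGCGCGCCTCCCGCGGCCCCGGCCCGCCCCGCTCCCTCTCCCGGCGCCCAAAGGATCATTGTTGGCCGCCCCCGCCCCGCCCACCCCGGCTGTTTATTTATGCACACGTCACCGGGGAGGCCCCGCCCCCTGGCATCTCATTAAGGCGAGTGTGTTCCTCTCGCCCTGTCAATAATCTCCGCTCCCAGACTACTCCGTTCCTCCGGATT
The GC content of these 5 was 76.3%, 67.3%, 51.7%, 75.3% and 70%, against a median of 52.7% over 32851 promoters. A high GC content was thus found at closed and at open promoters alike. Neither Tcf7 promoter window overlapped a peak in any of the 12 libraries, DP WT included. Both windows lie inside the gene and do not reach its 5′ end at position 52283383. No open region covered that end either. At Lef1, the promoter of the gene's first start and its close neighbour at chr3:131110073-131110372 overlapped a peak in 1 Empty RV library alone. The Lef1 promoter at chr3:131112541-131112840 overlapped a peak in 8 of 8 NIH3T3 libraries and in 0 of 4 DP libraries. The Tcf7l1 promoter overlapped one in 11 libraries, the exception being 1 KO library, and the Tcf7l2 promoter in all 12.

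The TCF core was searched in the promoters. CTTTGA on either strand was found in 16% of the 32851 promoters, and the longer CTTTGAT, which contains it, in 3.73%. Among the 9 promoters of the family, 1 held CTTTGA and none held CTTTGAT. It is the Lef1 promoter of the start inside the gene, where capitals mark the 2 matches, both on the opposite strand and so read as TCAAAG, beginning at -180 and -120 from the start.
Lef1, chr3:131156044-131156343, plus strand: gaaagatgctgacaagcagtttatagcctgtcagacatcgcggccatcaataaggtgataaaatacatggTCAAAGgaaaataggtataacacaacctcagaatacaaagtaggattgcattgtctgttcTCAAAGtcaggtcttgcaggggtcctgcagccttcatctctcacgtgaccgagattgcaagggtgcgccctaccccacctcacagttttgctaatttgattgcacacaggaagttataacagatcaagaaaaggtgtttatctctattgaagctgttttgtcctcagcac
This promoter overlapped no peak in any library. A DP WT region, chr3:131157459-131157861, lay 1.37 kb downstream of its start and is described with the Lef1 losses. The second Tcf7l2 promoter, chr19:55895071-55895370, also overlapped no peak. A match is a description of the letters, not of binding, and sequence outside the promoters was not used here.

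In DP thymocytes, the comparison of KO with WT asked which open regions at the family depended on Tcf-1. A DP region is called lost here when each WT library and no KO library has a peak there, gained in the opposite case, and kept when all 4 have one. Lef1 had the most lost regions of the 4 members, with 6 of its 8 WT regions lost. Tcf7 lost 3 of 7, Tcf7l1 1 of 4 and Tcf7l2 0 of 2. The sum of 10 of 21 (47.6%) lay near the genome-wide share of 45.7% of 21952 WT regions. Among regions over 1 kb from a gene end, 9 of 14 were lost in the windows and 70.3% of 11347 in the genome. Lef1 had 6 such WT regions, of which 5 were lost. Over all gene windows with a WT region, 64.3% had at least 1 lost region. With 2 libraries against 2, no region or window can reach p under 0.05 in an exact test, the smallest possible p being 0.333, so these calls are a description.

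Lef1, which encodes the family member most closely related to Tcf-1, had 8 and 11 peaks in its window in the WT libraries and 2 and 2 in the KO libraries. Per 10000 listed peaks, this was 3.50 ± 0.0771 (SD, n = 2) in WT and 1.71 ± 0.108 (SD, n = 2) in KO. The difference, KO minus WT, was -1.78, beside a median difference of 0.319 over 17034 gene windows (exact two-sided permutation test, p = 0.333, adjusted p = 0.516 by Benjamini-Hochberg). No window had a smaller p or adjusted p. The groups did not overlap at Lef1, nor at Tcf7l1 and Tcf7l2, where KO was higher. In this design any window whose groups do not overlap gets p = 0.333 in the exact permutation test. The adjusted p of 0.516, the smallest of all windows, means that most windows had that p. Lack of overlap thus does not set these members apart. At least as many lost regions were found in the windows of 230 of 21887 genes, a rank that takes no account of window length or of the number of WT regions.

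The lost Lef1 regions ran from the far upstream flank to the last part of the gene. The first, chr3:131068136-131068362, lay 42.05 kb upstream of the nearest start. The next, chr3:131112044-131112430, lay within 1 kb of the start whose promoter was open in NIH3T3. There the WT peaks, of 0.357 and 0.387 kb, ended at position 131112430, before the printed promoter begins at 131112541. NIH3T3 peaks at the same place reached to between 131112604 and 131112667, so that the DP and fibroblast openings overlapped but had different ends. Further regions lay inside the gene at chr3:131117966-131118282, chr3:131141613-131141882, chr3:131157459-131157861 and chr3:131214872-131215181. The WT peaks measured 0.337 and 0.376 kb at the third of these and 0.202 and 0.310 kb at the last.

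The 2 Lef1 window regions that KO cells kept were chr3:131208408-131208966, inside the gene, and chr3:131271646-131272332, which covers the start of Hadh, a gene of fatty acid oxidation. The former was 0.458 and 0.559 kb wide in WT and 0.200 and 0.383 kb in KO. It was thus the single region inside Lef1 that both KO libraries held, and it was not open in any NIH3T3 library.

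**Figure D1:**
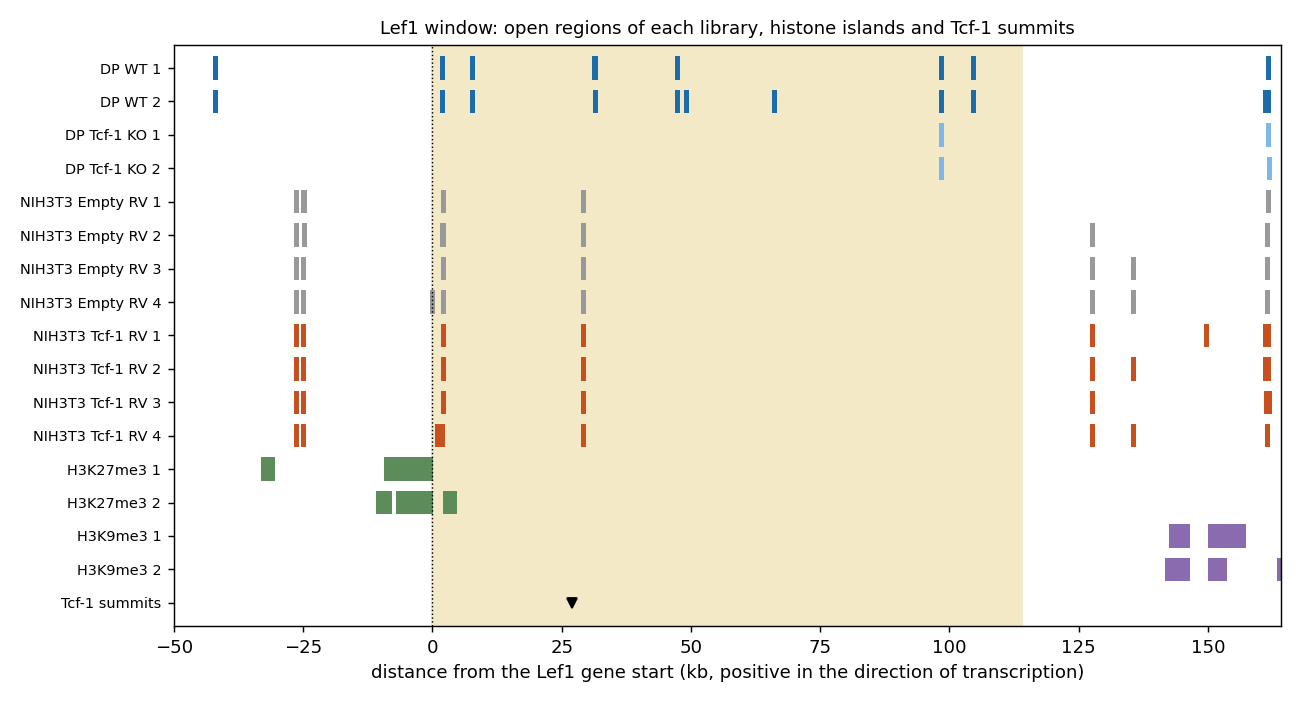
Peaks of the 12 ATAC-seq libraries, islands of H3K27me3 and H3K9me3 in 2 NIH3T3 replicates each, and Tcf-1 summits (triangles) across the Lef1 window, by distance from the gene start in kb; the shaded span is the gene, and narrow peaks are drawn wider than to scale. The KO libraries have 2 peaks each where the WT libraries have 8 and 11.

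In the Tcf7 window, the WT libraries had 8 and 7 peaks and the KO libraries 4 and 3. Per 10000 listed peaks this was 2.85 ± 0.836 (SD, n = 2) against 3.02 ± 0.794 (SD, n = 2), overlapping values with a difference of 0.169 (exact permutation p = 0.667, adjusted p = 0.799). The lower count in KO was thus no lower relative to the length of the KO lists. The lost regions were chr11:52268627-52268890 inside the gene, and chr11:52309574-52309860 and chr11:52318609-52318842, which lay 26.7 and 35.7 kb upstream of the nearest start. The first of these upstream regions is inside the lncRNA gene Gm30217, and the other overlaps its end.

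Kept at Tcf7 were chr11:52275323-52275860 inside the gene, chr11:52314015-52314720, and chr11:52231650-52232359, which lies at the start of Skp1, a subunit of a ubiquitin ligase. The intragenic one was 0.523 and 0.498 kb wide in WT and 0.202 and 0.201 kb in KO, a ratio of 0.395. This is the 3.13rd percentile of 9239 kept regions, whose median ratio was 0.727. For the 1880 kept regions over 1 kb from a gene end, as this one is, the median was 0.654. The region at chr11:52314015-52314720, 31.4 kb upstream of the start and within Gm30217, was 0.624 and 0.706 kb wide in WT and 0.469 and 0.403 kb in KO. It was closed in all 8 NIH3T3 libraries, where it lay inside an H3K27me3 island, and a Tcf-1 summit of score 10.8 (rank 28454 of 40562) fell within it.

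At Tcf7l1 and Tcf7l2, the members known from stem cells and gut, 7 and 3 regions were open in at least 1 DP library, beside 8 at Tcf7 and 11 at Lef1. The Tcf7l1 window had 4 and 7 peaks in the WT libraries and 3 in each KO library, and its lost region was chr6:72745894-72746188, inside the gene. In the region kept upstream of its start, chr6:72789173-72789805, the peaks were 0.549 and 0.620 kb wide in WT and 0.260 and 0.200 kb in KO. The ratio of KO to WT width was 0.393, the 3.11th percentile of kept regions. The KO peaks, at 72789253-72789512 and 72789597-72789796, overlapped WT peaks but not each other. The other kept regions of its window cover gene ends of Retsat, Elmod3 and Tgoln1. Tcf7l2 was the single member with more peaks in KO, 3 in each library, than in WT, with 2 in each. Per 10000 listed peaks, Tcf7l1 had 1.99 ± 0.381 in WT and 2.57 ± 0.161 in KO, and Tcf7l2 0.753 ± 0.152 and 2.57 ± 0.161 (SD, n = 2 each). The differences were 0.582 and 1.82 (exact permutation p = 0.333 for both, adjusted p = 0.516).

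Lost regions were narrower than kept ones. The 10 lost regions of the windows were 0.227 to 0.403 kb wide (median 0.291) and the 10 kept ones 0.504 to 0.710 kb (median 0.607), and genome-wide the medians were 0.335 and 0.658 kb. When each DP list was cut to its 11171 widest peaks, 9 WT regions remained in the 4 windows, 7 of them in both KO libraries, and 0 were lost, against 14.7% of 9229 in the genome. The lost regions themselves were thus not among the widest peaks, and the part of peak strength or list length in their loss was not tested. On that cut the Lef1 difference in peaks per 10000 was -0.448 (exact permutation p = 1). Without WT replicate 1, the lost regions numbered 16 in place of 10 in the windows, and 18418 in place of 10032 in the genome.

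In NIH3T3, the comparison of Tcf-1 RV with Empty RV asked what expressed Tcf-1 opened at the family. A region is called gained when it has a peak in 4 of 4 Tcf-1 RV and 0 of 4 Empty RV libraries, the pattern with the smallest two-sided Fisher exact p (0.0286), which after adjustment over 77882 regions was 1. Tcf7 had 4 gained regions and Tcf7l2 1, while Lef1 and Tcf7l1 had none. The genome-wide share of gained regions was 1.08% and that of lost regions 0.110%, and none of the 4 windows had a lost region. A gained region was found in 5.29% of all gene windows. At least 4 gained regions were found in the windows of 2 genes, Tcf7 and its neighbour Skp1, whose window takes in the same regions, and in the body of Tcf7 alone. Where the replicate number was used as a block, with 1 tie allowed among the 4 pairs, 13 regions of the windows were gained in place of 5, and 3523 in the genome in place of 839. Without Tcf-1 RV replicate 3, the numbers were 11 in the windows and 2643 in the genome.

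At Tcf7 the retrovirus itself has to be kept in view. The Tcf-1 vector carries Tcf7 coding sequence, and reads from inserted copies would be placed on the exons of the gene. The exons were not used here, so each Tcf-1 RV peak and each summit inside Tcf7 may be retroviral, and in these the 2 sources cannot be told apart. Empty RV libraries, whose vector is labelled as empty, had peaks in 5 regions inside the gene. The 4 gained regions were chr11:52256743-52257251, chr11:52257684-52257941, chr11:52261512-52261763 and chr11:52281977-52282373. The widest of them measured 0.498, 0.507, 0.478 and 0.478 kb in the 4 Tcf-1 RV libraries, and the one at 52257684 measured 0.252, 0.255, 0.239 and 0.233 kb. In these 2 regions, and in the one at 52261512, the libraries had nearly the same ends. At the region by the start the widths were 0.381, 0.397, 0.242 and 0.364 kb. There replicate 3 was the narrowest, its peak beginning at 52282127 rather than near 52281977, with nearly the same other end. Each of the 4 held a Tcf-1 summit, with scores of 62.6, 50.3, 42.6 and 36. The last region lay 0.420 kb downstream of the nearest start, within an H3K27me3 island, and did not reach either printed or unprinted Tcf7 promoter.

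Other regions inside Tcf7 were held by part of the libraries. Region chr11:52272669-52272981 was open in 4 Tcf-1 RV and 1 Empty RV libraries, with a summit of score 44.8. Region chr11:52258856-52259078 was open in 3 Tcf-1 RV libraries and chr11:52260540-52260760 in 2, both with a summit. The reverse was seen at chr11:52260920-52261383, held by all 4 Empty RV libraries and by 1 of the Tcf-1 RV libraries, with no summit. That region lay between gained regions, less than 1 kb from chr11:52261512-52261763, so presence within this part of the gene differed in both directions. None of these regions was open in DP thymocytes.

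Outside the gene, the Tcf7 window had no gained region. Closest to the rule was chr11:52321632-52322160, 38.9 kb upstream of the start, open in 3 Tcf-1 RV and 0 Empty RV libraries. It held a summit of score 53.4 (rank 5420 of 40562) and lay in an H3K27me3 island. It was not open in DP thymocytes, although the DP regions at 52314015 and 52318609 lie on the same flank.

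Counted per window, Tcf7 had 2, 2, 4 and 7 peaks with the empty virus and 10, 10, 7 and 11 with the Tcf-1 virus. Per 10000 listed peaks this was 0.879 ± 0.257 against 2.02 ± 0.234 (SD, n = 4 each), a difference of 1.14 with no overlap between the groups. With peaks inside Tcf7 left out, which may be retroviral, the difference was 0.194, and with the widest peaks of each list it was 0.549. The exact permutation test gave p = 0.0286, the smallest this design allows, and adjusted p = 0.822 over 18954 windows, so the difference did not pass the test. Groups failed to overlap in 3.48% of windows. Within the libraries whose file names carry a day 2 tag the difference was 1.47, and within those tagged day 4 it was 0.804.

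For each of the other members the libraries of the 2 groups overlapped, and no difference passed the test. Lef1 had 5, 7, 7 and 8 peaks in Empty RV and 8, 8, 7 and 8 in Tcf-1 RV, with rates of 1.77 ± 0.397 and 1.68 ± 0.284 (exact permutation p = 0.686, adjusted p = 1). Tcf7l1 had 6, 9, 11 and 14 against 14, 10, 8 and 18, with rates of 2.499 ± 0.140 and 2.57 ± 0.387 (exact permutation p = 0.686, adjusted p = 1). Tcf7l2 had 5, 7, 11 and 14 against 15, 14, 7 and 15, with rates of 2.25 ± 0.174 and 2.67 ± 0.626 (exact permutation p = 0.314, adjusted p = 0.942). For Tcf7l2 the difference was 1.07 within the day 2 tag, and within the day 4 tag the rate was 2.15 in Tcf-1 RV against 2.38 in Empty RV.

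**Figure D2:**
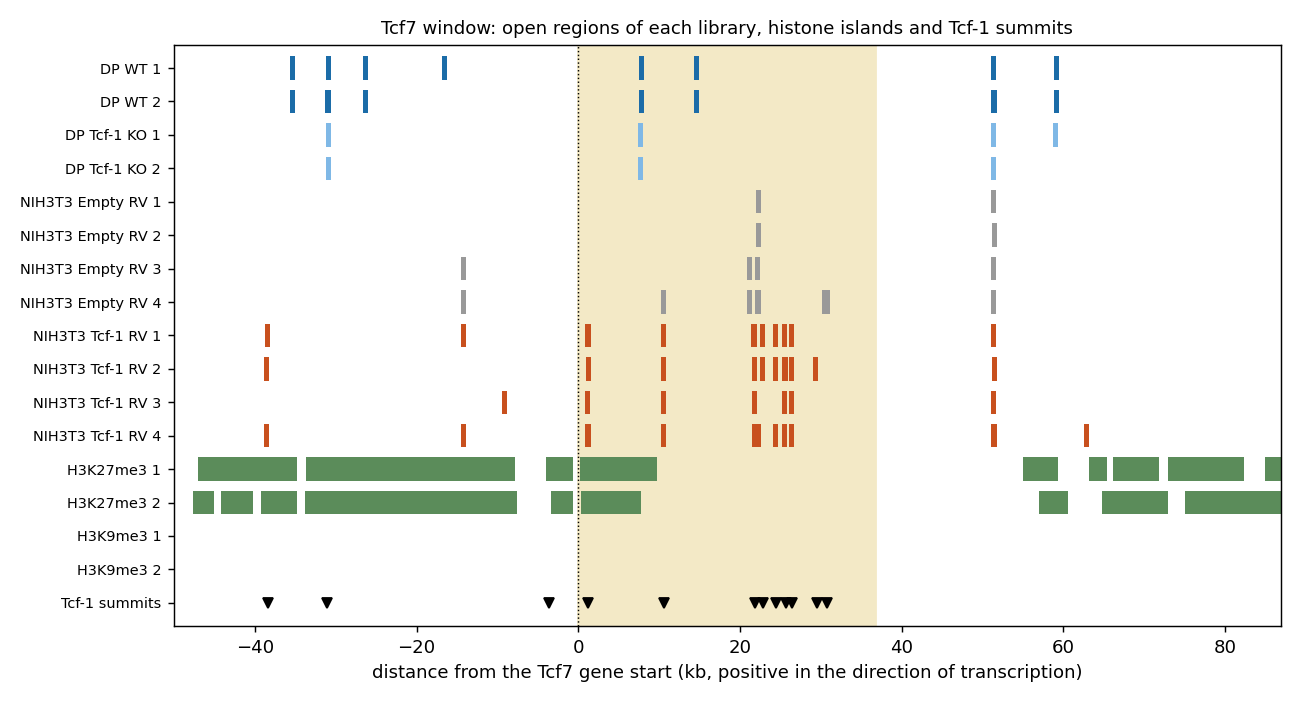
The Tcf7 window drawn as for Lef1, with kb positive in the direction of transcription. Tcf-1 RV libraries show a group of peaks at 20 to 30 kb inside the gene that Empty RV libraries largely lack, and H3K27me3 islands cover both flanks.

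**Figure D3:**
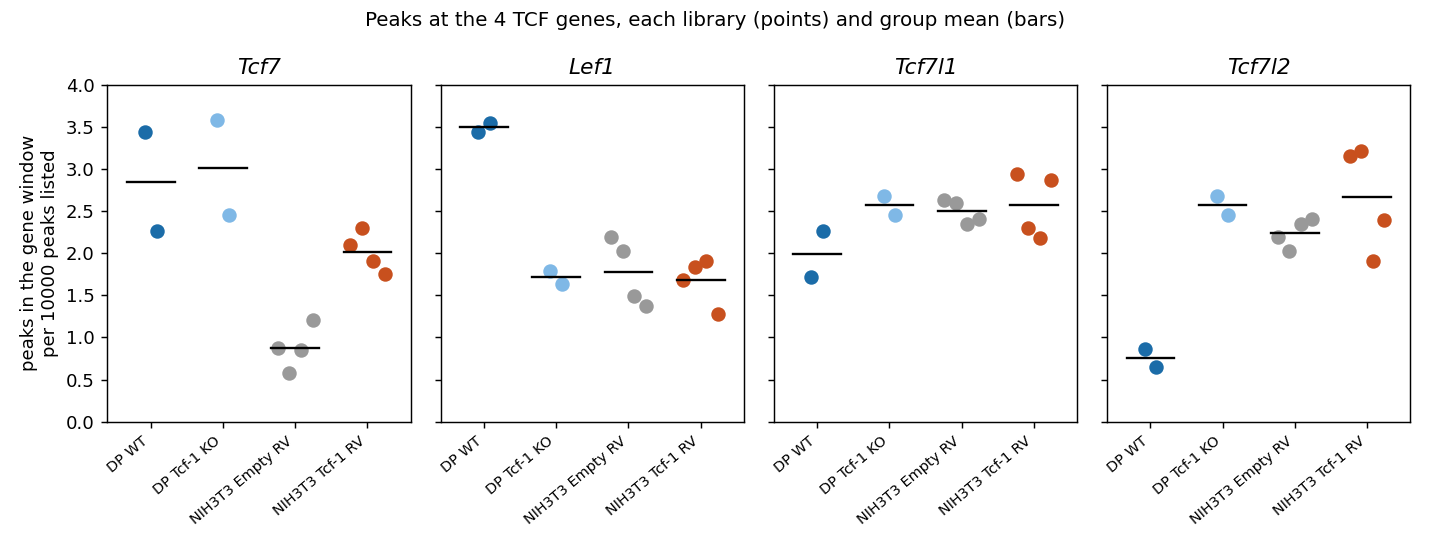
Peaks in each gene's window per 10000 peaks listed by the library, for each of the 12 libraries (points) with the group mean (bars). The mean of Lef1 is lower in KO than in WT, while the means of Tcf7l1 and Tcf7l2 are higher. Tcf7 is higher in all 4 Tcf-1 RV than in all 4 Empty RV libraries.

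Tcf7l2, which is known as the main TCF of the gut epithelium, had the one region with calls in both systems. Region chr19:55792587-55792888 lies inside the gene, 50.9 kb downstream of the nearest start. No WT library had a peak there, and the KO libraries had peaks of 0.204 and 0.302 kb. No Empty RV library had one, and the Tcf-1 RV libraries had peaks of 0.276, 0.237, 0.200 and 0.266 kb. It was therefore open in KO thymocytes, labelled as lacking Tcf-1, and in fibroblasts given Tcf-1. Of the 93162 regions, 41 were in both KO and neither WT library and 838 were in 4 Tcf-1 RV and no Empty RV library, and this was the single region that met both rules. Among DP regions held by both KO libraries, 0.478% of 9411 were gained.

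A Tcf-1 summit of score 110.9, rank 1132 of 40562 and the highest of all 35 summits in the 4 windows, fell inside it at position 55792741. Of the 41 regions in both KO and neither WT library, 3 held a summit. The region was in no H3K27me3 or H3K9me3 island of both replicates. When each NIH3T3 list was cut to the same number of widest peaks, the Tcf7l2 window had 0 gained regions. The same cut in DP says little of a gain, since it removes far more WT than KO peaks and leaves the shorter KO list whole. Gained regions then numbered 955 in the genome in place of 45. The summit was measured in fibroblasts, and no summit list of DP cells was used here.

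The second highest Tcf7l2 summit, of score 95.5 (rank 1752), lay 28.8 kb upstream of the start in chr19:55712812-55713163, open in 3 Tcf-1 RV and 0 Empty RV libraries. A further 3 of 4 Tcf-1 RV libraries opened chr19:55732520-55732821 and chr19:55758267-55758530, with summits of 10.2 and 29.9. The DP region chr19:55915378-55915902, deep in the gene, was the one Tcf7l2 region open in all 4 DP and no NIH3T3 libraries.

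**Figure D4:**
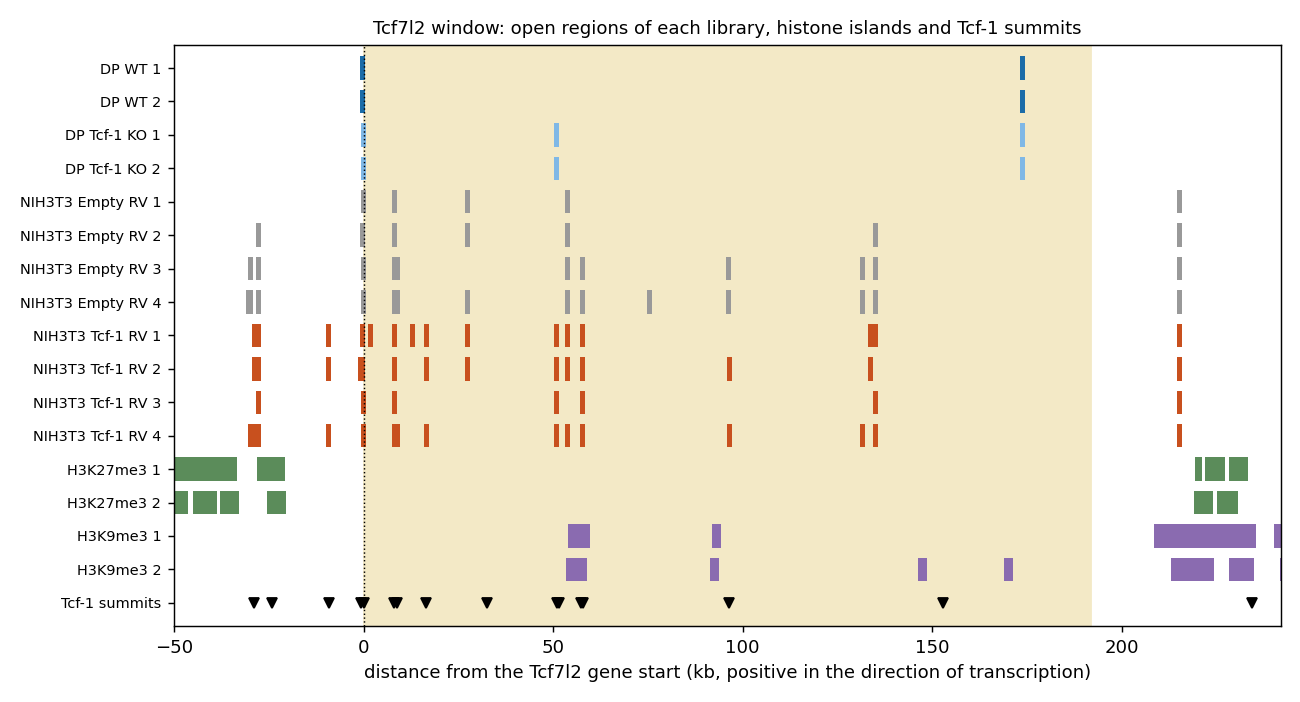
The Tcf7l2 window drawn as for Lef1. At 50.9 kb from the start, peaks stand in both KO and all 4 Tcf-1 RV libraries and in no WT or Empty RV library.

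Across the cell types, the members used different regions. Regions held by both WT and no NIH3T3 library numbered 6 at Tcf7, 6 at Lef1, 1 at Tcf7l1 and 1 at Tcf7l2. Regions held by at least 6 of 8 NIH3T3 libraries and neither WT library numbered 0, 4, 4 and 6 in the same order. Shared regions numbered 1, 2, 3 and 1. Summed, 15.9% of the 88 regions were DP-only, 15.9% fibroblast-only and 7.95% shared, against 10.2%, 21.1% and 10.6% of all regions. The single shared region at Tcf7 is the Skp1 start, so no region inside Tcf7 was open in both WT thymocytes and most NIH3T3 libraries. At Tcf7l2 the shared region is the gene's own start, and at Tcf7l1 one of the 3 is.

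H3K27me3, the mark deposited by Polycomb repressive complex 2, covered much of the Tcf7 window in NIH3T3. Islands called in both replicates covered 46.96% of it (54.4% and 51.9% in the single replicates), the 93.1st percentile of all gene windows, whose median was 6.24%. Within the gene they covered 20.1%, or 7.40 kb just downstream of the first start, and both Tcf7 promoters overlapped an island. The islands had ChIP over control folds of 1.72 to 3.30 (median 2.62) in replicate 1 and 1.69 to 3.16 (median 2.27) in replicate 2, beside medians of 2.02 and 2.03 over all islands. The longest, of 25.8 and 26.2 kb, covered the upstream flank with the DP regions at 52309574 and 52314015.

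The other windows had less of it, with 4.02% at Lef1, 7.92% at Tcf7l1 and 9.59% at Tcf7l2, the 44.6th, 53.9th and 57.2nd percentiles of all gene windows. With islands of a fold of at least 2, Tcf7 kept 37.8%, and the others 3.36%, 3.12% and 2.81%, so their order turned round. Lef1 was the one member with a gene end in an island of both replicates, which 16.5% of all genes had, and its first 2 promoters overlapped that island. A promoter in such an island was found in 13.2% of 17492 genes, and in Tcf7 and Lef1 among the 4 members. The Lef1 island, of 9.40 kb in replicate 1, ended at position 131110400, before the start that was open in NIH3T3. Replicate 2 alone had a further island, at 131112401 to 131115000 with a fold of 1.90, which covers that start. The Tcf7l1 promoter and both Tcf7l2 promoters, the open one and the closed one, overlapped no island of both replicates.

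H3K9me3, a mark of heterochromatin, covered 0% of the Tcf7 window, 3.55% at Lef1, 11.9% at Tcf7l1 and 8.65% at Tcf7l2, with a median of 1.88% over all windows. With islands of a fold of at least 2, these became 0%, 3.55%, 0% and 0.685%, so the order of Lef1, Tcf7l1 and Tcf7l2 depends on the fold. No member had an end or a promoter in such an island, against 9.38% of genes for an end and 6.73% for a promoter. Inside the genes it covered 12.3% of Tcf7l1 and 3.75% of Tcf7l2. These values are a description with no test, since the histone libraries of Tcf-1 RV cells were not analysed here.

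**Figure D5:**
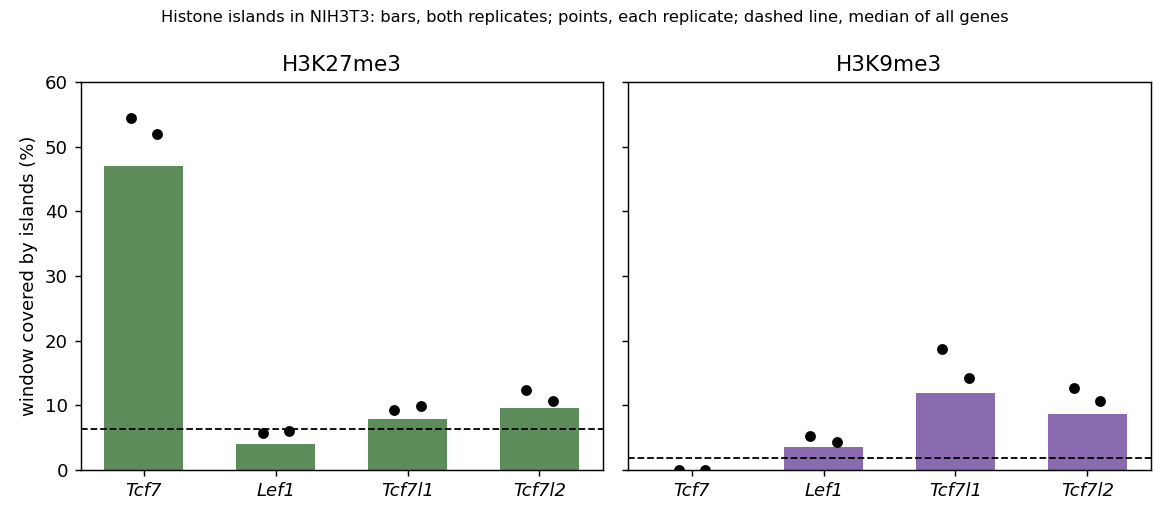
Percent of each gene window covered by H3K27me3 (left) and H3K9me3 (right) islands in NIH3T3 without Tcf-1: bars, islands of both replicates; points, each replicate; dashed line, the median over all gene windows. Tcf7 has the most H3K27me3 (46.96%) and no H3K9me3.

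Tcf-1 summits in Tcf-1 RV cells were spread unevenly over the family. The Tcf7 window held 12, Lef1 1, Tcf7l1 6 and Tcf7l2 16, and at least 1 summit was found in 72.1% of all gene windows. Inside the gene bodies, Tcf7 had 9 and Tcf7l2 11. The density in Tcf7, 2.44 per 10 kb, was at the 98.8th percentile of genes, though these summits too may be retroviral. The scores come from the authors' list, and their scale is not stated.

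The Lef1 summit, of score 28.2 at position 131137274, lay 1971 bp from the nearest open region and in none of them. Of all 35 summits, 23 (65.7%) lay in a peak of at least 1 Tcf-1 RV library and 8 (22.9%) in a peak of an Empty RV library, against 52.7% and 35.5% of all 40562. The 35 take in the 9 inside Tcf7, where summits and Tcf-1 RV peaks may be retroviral. H3K27me3 islands held 4 (11.4%) and H3K9me3 islands 4 (11.4%) of the 35, against 4.67% and 6.67% of all summits. At Tcf7 3 of 12 summits lay in H3K27me3, and at Tcf7l2 3 of 16 in H3K9me3.

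Other genes of the Wnt pathway were taken as a list of 32 genes, each with 50 kb on both sides. In DP thymocytes 29 had a WT region and 21 had at least 1 lost region, beside 64.3% of all gene windows with a WT region. Of their 110 WT regions 35 (31.8%) were lost, beside 45.7% of all WT regions. By role, coactivators such as Ctnnb1, which encodes beta-catenin, lost 9 of 30 regions, corepressors such as the Tle genes 10 of 47, and genes of the destruction complex and of feedback 16 of 33. The most were lost at Rnf43, a ubiquitin ligase that removes Wnt receptors, with 4 of 6. Bcl9l, a beta-catenin cofactor, lost 3 of 4, and Gsk3b, the kinase that marks beta-catenin for destruction, 3 of 5. Axin1, a scaffold of that complex, lost 2 of 5, Hdac1, a histone deacetylase, 2 of 6, and Nkd1, a Wnt feedback inhibitor, 2 of 3. Pygo1, Tle3, Tle5 and Znrf3 also lost 2 regions each and came later by name. None of the 32 gained a DP region.

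In NIH3T3 few regions of these pathway genes were called. Bcl9 and Crebbp, which encode coactivators, gained 1 region each, both with a Tcf-1 summit, and none of the 32 lost one. Over all gene windows, 5.29% had a gained region. All 32 windows held a summit, beside 72.1% of all gene windows, with a median of 4 against 2 over all genes. An end in an H3K27me3 island was found for 3 of the 32, beside 16.5% of all genes. These were Nkd1, Lgr5 and Dkk1, genes of feedback and of Wnt reception.

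The genes whose pattern over the 12 libraries was most like that of a member were found by Pearson correlation of peaks per 10000, among genes over 200 kb away with a peak in at least 6 libraries. The libraries share list length and cell type, so these are descriptions. Acsbg1 (0.950), Mindy3 (0.935) and Fam53b (0.916) were closest to Tcf7, and Atp1b3 (0.978), Celsr1 (0.978) and Mrpl46 (0.975) to Lef1. Itga5 (0.836), Tpr (0.830) and Cpeb1 (0.813) were closest to Tcf7l1, and Tada2a (0.933), Tigd4 (0.924) and Scx (0.891) to Tcf7l2.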

How the data were processed

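Own files of 16 of the 321 samples were used, and RNA-seq, single-cell ATAC-seq, input and further ChIP-seq libraries were not analysed here. The submitters' processing notes list the builds GRCh37, GRCm38 and mm10, the aligners Bowtie2 2.2.9 and STAR 2.5, and MACS2, Picard, Trim Galore and FastQC, with no role for each. The deposited ATAC-seq lists hold positions with no height, so depth is unknown, and 293 peaks on unplaced sequences were left out. The deposited SICER islands give ChIP and control read counts, the fold as a ratio, and p-values by the authors. The deposited Tcf-1 list has 1 score per summit.

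Peaks sharing at least 1 bp were merged per comparison (Python 3.11.15, pandas 2.3.3, NumPy 2.4.6). Peaks per window were divided by the list's length, compared by exact permutation tests and adjusted over all gene windows, and the code was tested on simulated data. The members and lists were chosen with earlier results of these data known. The gene and promoter tables (GRCm38.p6) give no exons and no sequence beyond promoters, so motifs in regions were not searched. Replicate numbers paired the NIH3T3 libraries: same-numbered libraries correlated in their deviations from the group means at 0.125 to 0.260. Those with other numbers correlated at 0.0648 to 0.194 within a day tag and at -0.243 to -0.0895 across day tags, so the pairing and the day tag overlap. In DP this was -0.0505, with 2 pairs. Named genes followed a rule: the members, the listed pathway genes with the most called regions (at most 6 a comparison, ties by name), and the 3 genes most like each member.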

Additional observations from a re-analysis of the deposited data

How the results depend on the processing

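No difference in peaks per locus passed its adjusted threshold under the reported setting or any alternative. The difference at Tcf7 in NIH3T3 and the differences at Lef1 and Tcf7l2 in DP kept their direction under all of their alternatives, but not their size: Tcf7 in NIH3T3 went from 1.14 to 0.194 with peaks inside the gene left out and to 0.549 with the widest peaks, and Lef1 in DP from -1.78 to -0.448 with the widest peaks. The others changed sign under some, and the cause was not tested. In DP, Tcf7 (0.169 per 10000 peaks) was at -4 by number of peaks, at -31 in bases covered relative to all bases listed, and at -0.422 to 0.760 with 1 library left out (below 0 without WT replicate 2 or KO replicate 1). Tcf7l1 (0.582) was at -2.5 by number, -0.699 for the gene body and -0.448 with the widest peaks. In NIH3T3, Lef1 (-0.0959) was at 1 by number, at 0.158 within the day 4 tag, and at -0.227 to 0.0448 with 1 library left out (above 0 without Empty RV replicate 1 or Tcf-1 RV replicate 4). Tcf7l1 (0.0751) was at -0.0374 with flanks of 10 kb and at -0.0467 to 0.204 with 1 library left out (below 0 without Tcf-1 RV replicate 1 or 4). Tcf7l2 (0.423) was at -0.220 with the widest peaks and at -0.227 within the day 4 tag. Lost DP regions numbered 10 to 16 with 1 library left out and 0 with the widest peaks. Gained NIH3T3 regions numbered 5 to 11 with 1 library left out, 13 with the replicate block, 16 within the day 2 tag, 1 with the widest peaks, and 1 with regions inside Tcf7 left out, an alternative chosen after seeing the data. Lost NIH3T3 regions, 0 as reported, numbered 1 with the 50% overlap rule, the widest peaks, the replicate block and either day tag, and 0 to 1 with 1 library left out. The replicate block changed no other call. Of the 35 summits, 21 were in the upper scoring part of the list split at its median. With islands of a fold of at least 2, H3K27me3 covered 37.8% at Tcf7, 3.36% at Lef1, 3.12% at Tcf7l1 and 2.81% at Tcf7l2, and H3K9me3 0%, 3.55%, 0% and 0.685%. Peak heights and depth are unknown, so a region without a peak may be below detection. Motifs in regions were not run for lack of sequence.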
